A study of Mus musculus with 18 samples.

Results

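The genes described are the ligands of the epidermal growth factor (EGF) family Areg, Ereg, Epgn, Hbegf, Tgfa and Btc, the receptors Egfr, Erbb2 and Erbb3, and the receptor inhibitor Errfi1. They were chosen by gene symbol, 10 of the 24421 genes in each of 3 count tables of mouse esophageal organoids, which are cultures grown from dissociated tissue in a gel. All 18 libraries were labelled Trp53-/-, Myc overexpressing and carrying a Cdkn2a guide, and differed in a guide against Tgfbr2, the type II receptor of TGF-beta (sgTgfbr2), or a control guide (sgScr). The groups were premalignant sgTgfbr2 line 2 and line 1 (n = 2 each), premalignant sgScr (n = 3), tumor sgTgfbr2 (n = 2), tumor sgScr (n = 3), and tumor sgTgfbr2 organoids given 2 µM pinaverium bromide (PB, a calcium channel blocker; n = 3) or DMSO vehicle (n = 3) after 72 h of culture. The labels number the premalignant sgTgfbr2 lines without saying whether a number stands for a guide or a clone. The growth protocol, listed alike for all groups, gives a medium with EGF at 50 ng/mL, an added ligand, and A83-01 at 2 µM, which blocks the type I receptor of TGF-beta.

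Ligands of the EGF family are made as membrane-bound precursors, and metalloproteases of the ADAM family cut them free. A released ligand joins ErbB receptors into pairs that signal through RAS, MEK and ERK and through PI3K and AKT. Areg, Epgn and Tgfa bind Egfr, while Hbegf, Btc and Ereg also bind Erbb4. Erbb2 has no known ligand of its own and acts as a partner, Erbb3 has a weak kinase and binds neuregulins, and Errfi1 (also called Mig6) binds active Egfr and blocks its kinase. In stratified squamous epithelia such as the esophagus, Egfr is known for its part in basal cell proliferation.

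Each library held 14993749 to 21784140 counts, and levels are given as CPM, counts scaled to a fixed library total. Tgfbr2 itself stood at 105 and 86.2 CPM in premalignant sgTgfbr2 line 2, 128 and 131 in line 1 and 188, 179 and 219 in sgScr. In the tumor table it stood at 67.5 and 71.2 CPM with the guide against 120.2, 112 and 129 with the control guide. The guide's group was lower in both. Transcript counts need not show whether a guide cut. The 5 libraries labelled tumor sgTgfbr2 and tumor sgScr went against the label of organoids. Summed skeletal muscle markers (10 genes) were 217 to 260 CPM in tumor sgTgfbr2 and 18477 to 19171 in tumor sgScr, against at most 4.65 in every other group. Of these genes Myh2, Myh8 and Tnnc2 were at 0 in tumor sgTgfbr2, and none was in tumor sgScr. Fibroblast markers (8 genes) summed to 2318 to 2367 CPM in tumor sgTgfbr2 and 2899 to 3080 in tumor sgScr. Columnar and gastric gland markers (12 genes) summed to 29247 to 32344 CPM in tumor sgTgfbr2 against 2.13 to 2.69 in tumor sgScr. The same sum was 1156 to 1233 CPM in premalignant line 2, 1177 to 1191 in line 1 and 832 to 881 in sgScr. With PB it was 458 to 465 CPM and with vehicle 722 to 734, so tumor sgScr was the lowest group. The list also holds the keratin genes Krt8, Krt18 and Krt20. Its gland genes Gkn2 and Tff1 were at 0 in every group but tumor sgTgfbr2, where no gene of the list was at 0. In the premalignant, PB and vehicle groups the fibroblast sum was at most 4.69 CPM, and its genes Col3a1 and Lum were at 0. Squamous basal markers, among them Krt5, Krt14 and Trp63, were present in all 18 libraries.

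Epgn, Ereg, Areg and Btc lie in this order on chromosome 5 of GRCm38. Epgn spans 91027464 to 91035215 and Areg 91139599 to 91148432, both on the plus strand, with start sites 112.1 kb apart. The stretches upstream of Areg and Epgn are shown because these were the members that fell in premalignant sgTgfbr2. Ereg, which lies between them, was not called. The stretch upstream of a second start of Errfi1 is shown because it holds the same letters as Areg's. The stretches are RefSeq's GRCm38.p6 plus strand, 5′ to 3′, with no exonic bases, at chr5:91139349-91139598 for Areg, chr5:91027267-91027463 for Epgn and chr4:150854820-150855069 for Errfi1. Capitals mark TGACGTCA, known as the cyclic AMP response element.
Areg: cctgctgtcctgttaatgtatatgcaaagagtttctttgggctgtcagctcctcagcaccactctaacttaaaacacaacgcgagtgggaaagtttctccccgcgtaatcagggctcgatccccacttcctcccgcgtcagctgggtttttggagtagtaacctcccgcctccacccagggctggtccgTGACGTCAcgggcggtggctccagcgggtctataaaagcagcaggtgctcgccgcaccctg
Epgn: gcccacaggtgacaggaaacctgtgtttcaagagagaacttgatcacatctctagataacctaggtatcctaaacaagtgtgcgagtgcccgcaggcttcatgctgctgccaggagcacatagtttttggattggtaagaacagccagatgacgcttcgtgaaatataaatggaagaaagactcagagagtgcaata
Errfi1: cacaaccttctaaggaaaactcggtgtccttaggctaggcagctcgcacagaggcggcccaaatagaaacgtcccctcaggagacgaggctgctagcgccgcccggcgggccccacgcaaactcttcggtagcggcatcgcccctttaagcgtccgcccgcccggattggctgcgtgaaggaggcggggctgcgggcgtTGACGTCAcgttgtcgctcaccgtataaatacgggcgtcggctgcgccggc
TGACGTCA began 61 bases before the start site in Areg and 51 bases before it in Errfi1, and 1.55% of 32851 windows of 250 bases hold it on either strand. TGANTCA, the AP-1 motif, stood in 6.75% of all windows and CATTCC, the TEAD motif, in 12.6%, and neither stood in the windows printed. Of the 10 members 7 had a window in the table, and CATTCC stood once in that of Erbb2 and once in another window of Errfi1. Such matches describe letters, not bound sites.

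In premalignant organoids Epgn and Areg were lower with the Tgfbr2 guide, while Hbegf, all 3 receptors and Errfi1 were higher. Of the 10 members, all tested, 5 were higher and 2 lower by edgeR's quasi-likelihood test at an adjusted p of 0.05. Over all 13098 genes tested 46.2% were called, 22.7% higher and 23.5% lower. The members' median log2 fold change was 0.50 against -0.0037 over all genes. Groups did not overlap for 8 members, against 51.2% of all genes.

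**Figure D1:**
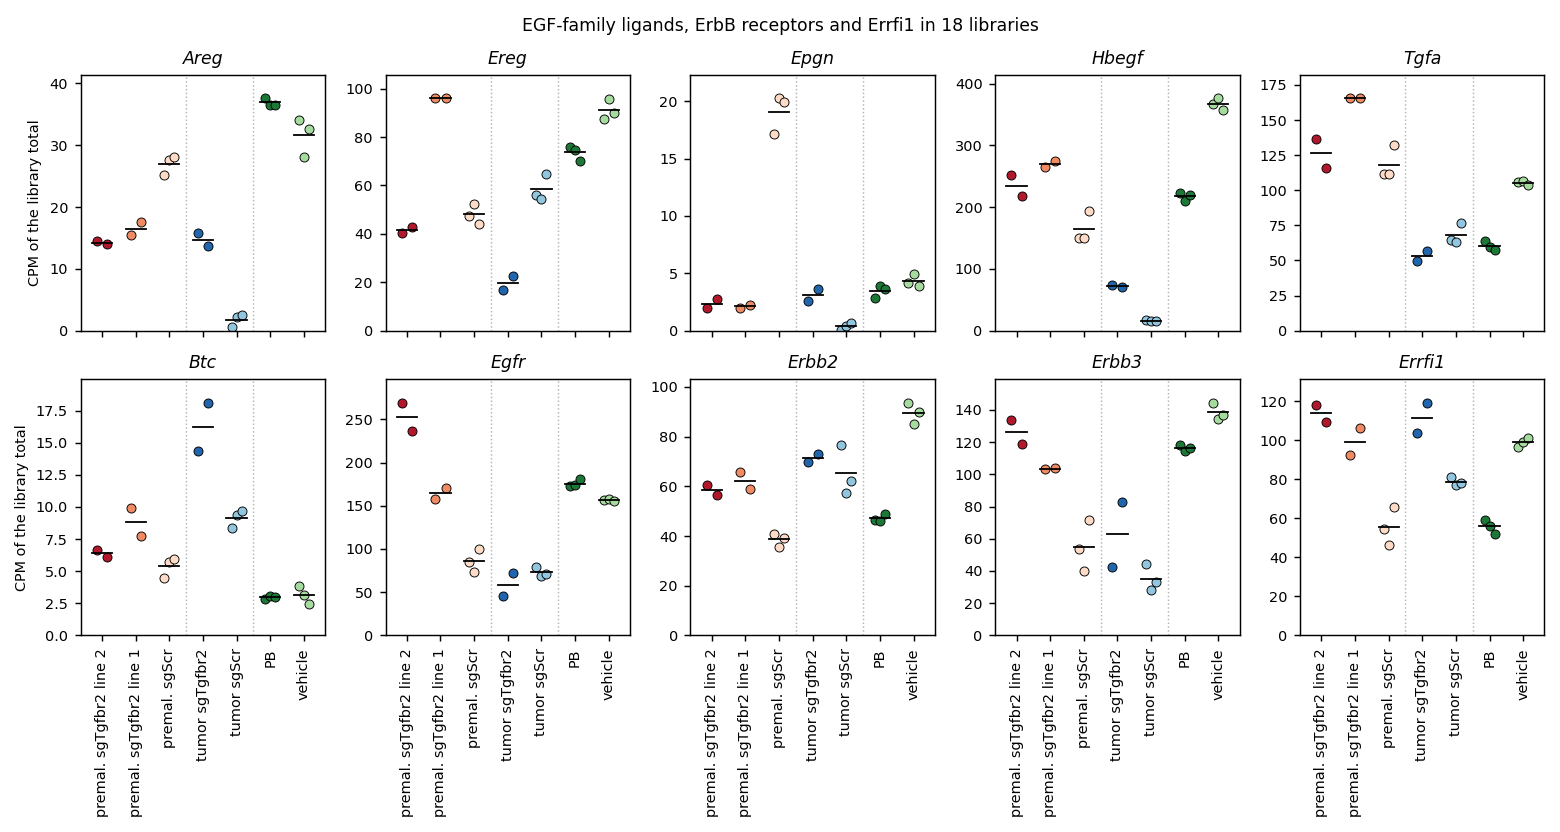
Level of each member in every library (y axis, CPM of the library total, from 0, on a scale of its own per gene), with groups along the x axis, a point per library and a line at the group mean. Dotted lines part the 3 tables, between which levels were not tested, only the effect of the guide. Epgn lay under 5 CPM in every library but those of premalignant sgScr, at 17.1 to 20.3 CPM.

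Epgn encodes epigen, an Egfr ligand. Its level was 1.98 and 2.73 CPM in line 2 and 2.01 and 2.28 in line 1, against 17.1, 20.3 and 19.9 in sgScr. All 4 sgTgfbr2 libraries lay far below the 3 sgScr libraries, and the lines overlapped each other. The log2 fold change was -3.16 ± 0.16 (SE, adjusted p = 1.02e-05), a 0.112-fold level. In bulk RNA, fewer cells that express a gene and less of its RNA per cell cannot be told apart. Suprabasal markers (7 genes) moved the same way. Their sum was 1022 to 1038 CPM in line 2 and 771 to 791 in line 1 against 2545 to 2870 in sgScr. Basal markers (6 genes) had a mean sum of 9211 CPM in line 2 and 6186 in line 1 against 10502 in sgScr. The sum of the columnar and gastric gland markers was higher, at 1195 and 1184 CPM against 865 in the same order. Of its 12 genes, 7 were at 0 in line 2, 2 in line 1 and 4 in sgScr, so the list did not rise as a whole. The part of these markers in the result was not tested.

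Areg, the amphiregulin gene, was counted at 14.4 and 14.0 CPM in line 2 and 15.4 and 17.6 in line 1, against 25.3, 27.5 and 28.2 in sgScr. Each sgTgfbr2 library lay below each sgScr library (-0.89 ± 0.11, log2 ± SE, adjusted p = 0.000465). Hbegf, the heparin-binding ligand, stood at 253 and 217 CPM in line 2 and 264 and 275 in line 1, against 150.2, 150.0 and 193 in sgScr. Here the order was the opposite, with every sgTgfbr2 library above sgScr (log2 fold change 0.55 ± 0.11, adjusted p = 0.00403).

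Ereg, the epiregulin gene next to Areg, differed between the sgTgfbr2 lines. It stood at 40.6 and 42.6 CPM in line 2 and 96.0 and 96.2 in line 1, against 47.4, 52.5 and 44.3 in sgScr. Line 1 lay above all other libraries of the table and line 2 just below sgScr, so the pooled groups overlapped. The pooled log2 fold change, 0.44 ± 0.31, had an adjusted p of 0.267. Against sgScr it was 0.96 for line 1 alone (adjusted p = 2.39e-05) and -0.28 for line 2 alone (adjusted p = 0.0520). Tgfa, which encodes transforming growth factor alpha, stood at 136 and 116 CPM in line 2, 166 and 166 in line 1 and 111, 111 and 132 in sgScr, and only line 1 lay clear of sgScr. Its pooled log2 fold change was 0.23 ± 0.13 (adjusted p = 0.166), and it was 0.45 for line 1 alone (adjusted p = 0.00190). Without line 2 replicate 2 the pooled value passed too (0.35, adjusted p = 0.0419). Btc, the betacellulin gene, was low, at 6.67 and 6.10 CPM in line 2 and 9.94 and 7.73 in line 1 against 4.45, 5.69 and 5.95 in sgScr. Its libraries did not overlap, by a narrow margin, and it did not pass the test (0.43 ± 0.21, adjusted p = 0.121). With a mean for each line in the fit Ereg (0.32), Tgfa (0.22) and Btc (0.41) all passed. That fit leaves the difference between the lines out of its spread, so it cannot show an effect shared by the lines. Ereg went opposite ways in them, at 0.96 and -0.28 alone.

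Among the receptors, Egfr, which binds all 6 ligands, stood at 269 and 236 CPM in line 2 and 158 and 171 in line 1, against 84.4, 73.1 and 100.1 in sgScr. The lines stood apart from each other as well as from sgScr, with line 2 the highest (log2 fold change 1.22 ± 0.19, adjusted p = 0.00119). Erbb2 had 60.4 and 56.7 CPM in line 2 and 65.6 and 58.9 in line 1, against 40.8, 35.8 and 39.4 in sgScr. The lines overlapped and both lay above sgScr (0.58 ± 0.09, adjusted p = 0.000979). Erbb3, the neuregulin receptor, had 134 and 119 CPM in line 2 and 103 and 104 in line 1, against 53.6, 39.8 and 71.3 in sgScr. The sgScr libraries were spread widely and still lay below every sgTgfbr2 library (1.00 ± 0.17, adjusted p = 0.00177).

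Errfi1, the inhibitor, stood at 118 and 109.6 CPM in line 2 and 92.4 and 106 in line 1, against 54.4, 46.5 and 65.6 in sgScr. Both lines lay above sgScr, at a log2 fold change of 0.88 ± 0.12 (adjusted p = 0.000655). This fit treats libraries of a line as independent although the lines differed from each other, so its p-values may be too small. No label ties replicates to separate cultures or animals, so the p-values here reflect the scatter of these libraries, possibly a technical one.

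Set directly against each other, premalignant line 2 and line 1 differed in 3 of the 10 members, 1 higher and 2 lower in line 2, where 26.3% of 13438 genes were called (13.2% higher and 13.1% lower). Groups did not overlap for 8 members and for 69.1% of all genes. Ereg had the widest difference of the 10, -1.20 ± 0.11 on the log2 scale (adjusted p = 4.62e-06). Egfr was higher in line 2 (0.63 ± 0.11, adjusted p = 0.00114) and Tgfa lower (-0.39 ± 0.10, adjusted p = 0.0123). The call of Tgfa was lost without either line 1 library (adjusted p = 0.0928 and 0.0672) and without line 2 replicate 2 (-0.28, adjusted p = 0.149). Tgfbr2 was also lower in line 2 (-0.43 ± 0.11, adjusted p = 0.00915). The other 7 members had log2 differences from -0.46 (Btc) to 0.29 (Erbb3) and did not pass. Erbb3 passed without sgScr replicate 2 (adjusted p = 0.0484) or replicate 3 (0.0205), at the same 0.29.

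**Figure D2:**
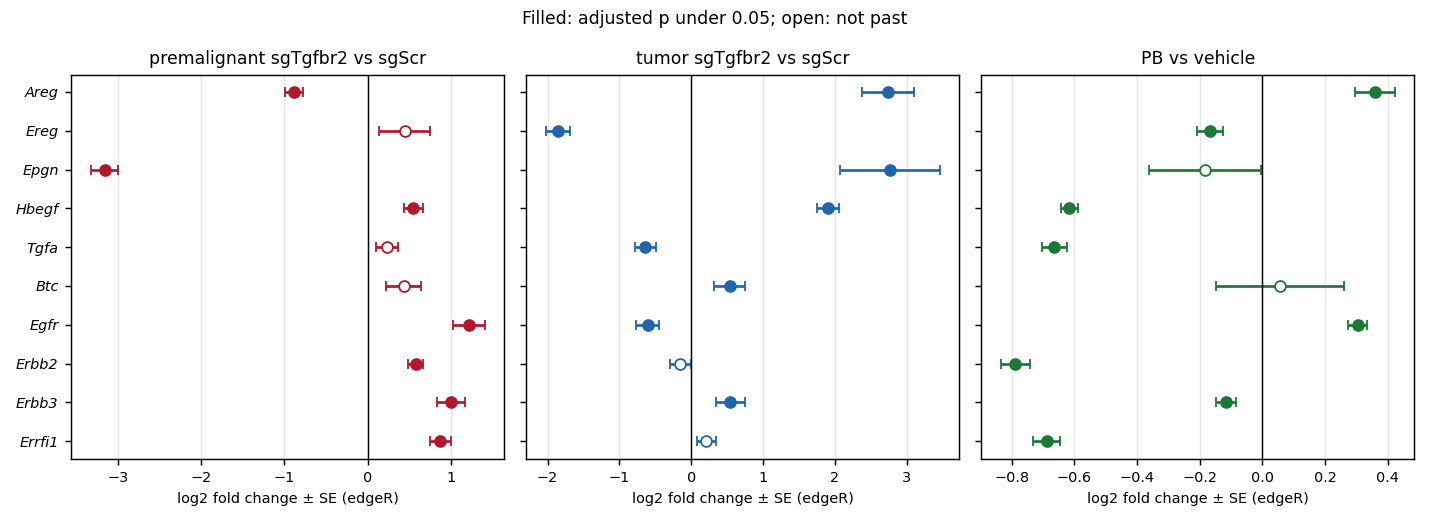
Log2 fold change of each member (x axis, points with standard errors by edgeR, on a scale of its own per panel) for premalignant sgTgfbr2 over sgScr, tumor sgTgfbr2 over sgScr, and PB over vehicle. Filled points passed an adjusted p of 0.05. Areg and Epgn lie left of 0 in the premalignant panel, at -0.89 and -3.16, and right of it in the tumor panel, at 2.74 and 2.76.

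In the tumor table Areg, Epgn and Hbegf were higher and Ereg and Tgfa lower in the libraries labelled sgTgfbr2. By edgeR 5 members were higher and 3 lower, where 60.3% of 15091 genes were called (29.8% higher and 30.5% lower), and groups did not overlap for 7 members and 74.3% of all genes. The members' median was 0.37 against -0.023 over all genes. With library totals in place of TMM scaling the median of all genes moved to 0.26, with 6046 genes higher and 3361 lower against 4492 and 4603. Beside every value that follows, the muscle, fibroblast and gland markers given above differed between these groups. The squamous markers did too, with a mean suprabasal sum of 20438 CPM in the sgTgfbr2 libraries against 135894 in those of sgScr. The mean basal sum (6 genes) was 10602 CPM in sgTgfbr2 and 3310 in sgScr. Immune markers (7 genes) averaged 735 CPM in tumor sgTgfbr2 and 887 in tumor sgScr, and endothelial markers (5 genes) 88.4 and 121. The part of these markers in the results was not tested.

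Areg had 15.7 and 13.7 CPM in tumor sgTgfbr2 against 0.633, 2.27 and 2.49 in tumor sgScr. Both sgTgfbr2 libraries lay far above the 3 sgScr libraries (2.74 ± 0.36, adjusted p = 1.14e-06). Epgn had 2.6 and 3.64 CPM against 0.0528, 0.417 and 0.653 in tumor sgScr, which stood for 1, 9 and 11 counts there. It was low in both groups, and the groups did not overlap (2.76 ± 0.70, adjusted p = 0.00176). Hbegf had 74.7 and 70.1 CPM in tumor sgTgfbr2 against 17.5, 15.0 and 14.9 in tumor sgScr. The groups lay well apart, and the levels of both were below those of every organoid library of the other tables (1.91 ± 0.16, adjusted p = 5.26e-10).

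Ereg went the other way, at 17.0 and 22.5 CPM in tumor sgTgfbr2 against 56.0, 54.6 and 64.7 in tumor sgScr. All sgTgfbr2 values were under those of sgScr (-1.85 ± 0.17, adjusted p = 2.94e-09). Tgfa, at 49.8 and 57.1 CPM in tumor sgTgfbr2 and 64.7, 62.9 and 76.8 in tumor sgScr, was lower by less, with groups that did not overlap (-0.64 ± 0.15, adjusted p = 0.000709). Btc reached its highest levels of the 18 libraries, 14.4 and 18.1 CPM, in tumor sgTgfbr2, against 8.39, 9.41 and 9.68 in tumor sgScr. Its call (0.54 ± 0.22, adjusted p = 0.0370) was lost with DESeq2 (adjusted p = 0.0502), with upper-quartile scaling (0.0516) and without any 1 of the 3 sgScr libraries or sgTgfbr2 replicate 2 (0.0661 to 0.216).

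The receptors overlapped between the tumor groups. Egfr had 45.8 and 71.6 CPM in tumor sgTgfbr2 and 79.5, 68.3 and 71.3 in tumor sgScr, and the groups overlapped. It was called lower (-0.61 ± 0.16, adjusted p = 0.00275), and the call was lost with library totals (-0.31, adjusted p = 0.116) and without sgTgfbr2 replicate 1 (-0.35, adjusted p = 0.1005). Erbb3 had 42.7 and 83 CPM in tumor sgTgfbr2 and 44.2, 28.1 and 33.1 in tumor sgScr, with 1 sgTgfbr2 library inside the range of sgScr. It was called higher (0.55 ± 0.21, adjusted p = 0.0280), and without the other sgTgfbr2 library, replicate 2, the log2 fold change was 0.027 (adjusted p = 0.923). Its call was also lost without sgScr replicate 2 (0.41, adjusted p = 0.146) or replicate 3 (0.49, adjusted p = 0.0594). Erbb2 had 70.0 and 73.1 CPM in tumor sgTgfbr2 and 76.5, 57.2 and 62.2 in tumor sgScr. Its groups overlapped, and its log2 fold change of -0.15 ± 0.15 (adjusted p = 0.377) turned to 0.13 with library totals. Errfi1 had 104 and 119 CPM in tumor sgTgfbr2, above all of 81.4, 77.3 and 77.9 in tumor sgScr. It did not pass the test with TMM scaling (0.21 ± 0.13, adjusted p = 0.167) and passed with library totals (0.50, adjusted p = 0.00272).

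The effect of the guide was set against itself between the tables, as the tumor difference minus the premalignant difference. Of the 10 members 3 were higher and 5 lower in this contrast, where 49.5% of 15671 genes were called (25.0% higher and 24.5% lower). Epgn (5.92 ± 0.53, adjusted p = 3.26e-07) and Areg (3.62 ± 0.40, adjusted p = 2.63e-06) were lower with the guide in the premalignant table and higher in the tumor table. Hbegf had the same sign and a larger fold in the tumor table (1.35 ± 0.17, adjusted p = 1.17e-05). Lower in the contrast were Ereg (-2.30 ± 0.41), Egfr (-1.84 ± 0.30), Tgfa (-0.88 ± 0.19), Erbb2 (-0.74 ± 0.17) and Errfi1 (-0.68 ± 0.18), with adjusted p from 0.000105 for Egfr to 0.00585 for Errfi1. With library totals Errfi1 lost its call (-0.44, adjusted p = 0.0613), and over all genes 4976 were higher and 3058 lower against 3924 and 3838. Btc (0.10 ± 0.30, adjusted p = 0.837) and Erbb3 (-0.47 ± 0.33, adjusted p = 0.264) did not pass, though Erbb3 did without tumor sgTgfbr2 replicate 2 (-0.99, adjusted p = 0.0307). Since the tumor libraries held RNA known from other tissues, stage and tissue makeup cannot be told apart.

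In tumor sgTgfbr2 organoids Hbegf, Tgfa, Erbb2 and Errfi1 were lower and Areg and Egfr higher with PB than with vehicle. By edgeR 2 members were higher and 6 lower with PB, where 73.3% of 12801 genes were called (36.5% higher and 36.8% lower). Groups did not overlap for 8 members and 74.7% of all genes. The members' median was -0.18 against -0.012 over all genes. With library totals the median of all genes moved to -0.15, with 3301 genes higher and 6155 lower against 4666 and 4713. The members' calls held. In a chi-square comparison of replicate pairs, PB and vehicle pairs gave 1.51 to 2.03 per degree of freedom. Pairs within the groups or lines of the other tables gave 6.42 to 21.3. The p-values with PB thus reflect a small scatter, possibly a technical one.

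Hbegf had 223, 210.1 and 220.5 CPM with PB against 368, 377 and 358 with vehicle. The groups lay far apart for their spread (-0.62 ± 0.03, adjusted p = 1.60e-31, a 0.652-fold level). Tgfa had 64.1, 59.4 and 57.6 CPM with PB against 106, 106 and 104 with vehicle. It was lower in all 3 PB libraries (-0.66 ± 0.04, adjusted p = 3.25e-23). Erbb2 had 46.5, 46.2 and 48.7 CPM with PB against 93.7, 84.9 and 90.1 with vehicle, the largest fall among the members (-0.79 ± 0.05, adjusted p = 7.77e-25, a 0.579-fold level). Errfi1 had 59.3, 56.3 and 52.0 CPM with PB against 96.7, 99.2 and 101 with vehicle, again with no overlap (-0.69 ± 0.04, adjusted p = 5.12e-23).

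Areg had 37.7, 36.5 and 36.6 CPM with PB against 34.1, 28.1 and 32.7 with vehicle. Every PB library lay above every vehicle library (0.36 ± 0.06, adjusted p = 7.79e-07). Egfr was likewise higher, at 172, 174 and 181 CPM with PB against 157, 158 and 155 with vehicle (0.30 ± 0.03, adjusted p = 1.19e-14). Ereg, at 76.0, 74.8 and 70.2 CPM with PB and 87.7, 95.7 and 90 with vehicle, and Erbb3, at 118, 115 and 116 with PB and 145, 135 and 137 with vehicle, were slightly lower (-0.17 ± 0.04, adjusted p = 0.000250, and -0.12 ± 0.03, adjusted p = 0.00141). Epgn, at 2.87, 3.90 and 3.61 CPM with PB and 4.18, 4.95 and 3.87 with vehicle, and Btc, at 2.87, 3.04 and 2.96 with PB and 3.82, 3.12 and 2.43 with vehicle, overlapped and did not pass (adjusted p = 0.358 and 0.812). Suprabasal markers summed to 3500 to 3549 CPM with PB against 4506 to 4584 with vehicle. Basal markers summed to 8146 to 8183 CPM against 9235 to 9396, and columnar and gastric gland markers to 458 to 465 against 722 to 734. The part of these markers in these results was not tested.

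Per kilobase of the longest annotated transcript, which allows genes to be compared, Hbegf had the highest level of the 6 ligands in 6 of 7 groups. It made up 60.7% of the summed ligand CPM per kb in premalignant line 2 and 54.8% in line 1 against 43.9% in premalignant sgScr, and 54.0% with PB against 63.0% with vehicle. In tumor sgTgfbr2 its share was 42.1%, against 14.3% in tumor sgScr, where Tgfa (38.9%) and Ereg (36.6%) led. With the length of all annotated exons together in place of the longest transcript, Ereg (44.7%) stood above Tgfa (33.2%) in tumor sgScr, and Hbegf made up 33.0% in tumor sgTgfbr2 against 10.4% in tumor sgScr. Areg took 8.76% in line 2 and 7.97% in line 1 against 17.3% in premalignant sgScr. Its share was 20.4% in tumor sgTgfbr2 against 3.78% in tumor sgScr. With PB it was 21.77%, against 12.9% with vehicle. Epgn took 1.0% in line 2 and 0.715% in line 1 against 8.43% in premalignant sgScr, and at most 2.97% in the other groups. The 6 ligands together summed to 134 CPM per kb in line 2 and 170.1 in line 1 against 129 in premalignant sgScr. With the length of all exons line 2 lay below sgScr instead, at 92.5 against 97.9, and line 1 above it at 121, so the order of line 2 and sgScr depends on the length used. The sum was 59.6 in tumor sgTgfbr2 against 38.6 in tumor sgScr. With PB it was 139.6, against 202 with vehicle. Shares of a sum are tied to each other, and these are transcripts, not released ligand.

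**Figure D3:**
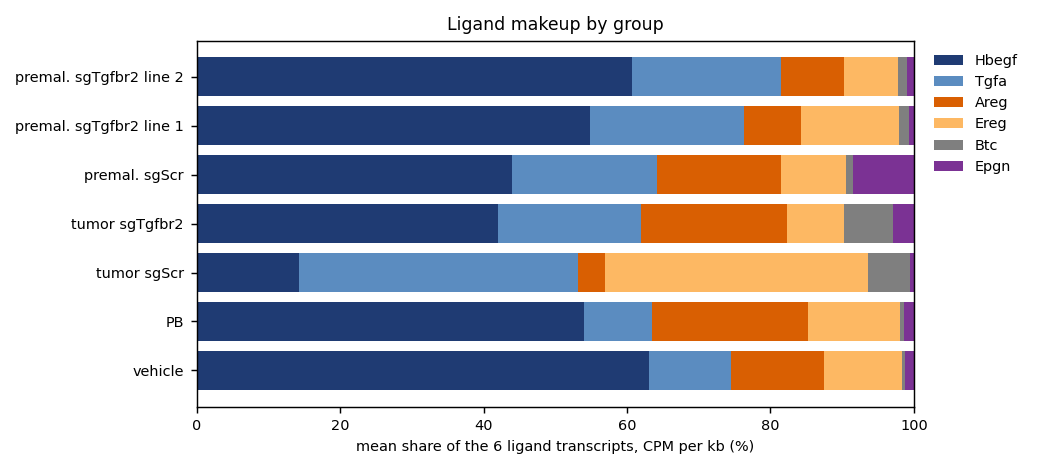
Mean share of each ligand in the summed CPM per kb of the 6 ligand transcripts (x axis, percent), with a bar per group down the page. Hbegf fills 42.1% or more of each bar apart from tumor sgScr, where it fills 14.3%.

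On the same scale Errfi1 was the highest of the 10 members in both tumor groups, at a mean of 36.6 CPM per kb in sgTgfbr2 and 25.9 in sgScr, and Hbegf was highest in all other groups. The receptors lay closer together. With PB the means were 19.3 for Erbb3, 17.2 for Egfr and 9.40 for Erbb2, against 23.1, 15.4 and 17.9 with vehicle. In premalignant line 2 they were 21.0, 24.8 and 11.7 CPM per kb, in line 1 17.2, 16.1 and 12.4, and in sgScr 9.13, 8.41 and 7.71 in the same order. Erbb2 was thus above Egfr with vehicle and below it with PB, while in sgScr the 3 receptors did not differ beyond the spread of Erbb3 and Egfr (SD 2.62 and 1.33).

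The other genes of the pathway came from 5 lists, whose counts stand against 22.7% of all genes higher and 23.5% lower in premalignant sgTgfbr2, 29.8% and 30.5% in tumor sgTgfbr2, and 36.5% and 36.8% with PB. Of the remaining ErbB ligands and receptors, Erbb4 and Nrg3 were at or near 0 and not tested in any comparison. Nrg1, a ligand of Erbb3, was lower in premalignant sgTgfbr2 (-0.35 ± 0.09, adjusted p = 0.0110) and higher with PB (0.28 ± 0.03, adjusted p = 6.44e-11). Egf averaged 1.79 CPM in tumor sgTgfbr2 and 15.7 in tumor sgScr (-3.41 ± 0.28, adjusted p = 5.65e-10), and at most 1.22 in the other groups. In all, 1 of 4 tested rose and 1 fell in premalignant sgTgfbr2, 1 and 2 in tumor sgTgfbr2, and 2 and 1 with PB.

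Of the ERK output and feedback genes, 7 of 16 tested rose and 1 fell in premalignant sgTgfbr2, with a median log2 fold change of 0.45 against -0.0037 over all genes tested (22.7% higher and 23.5% lower). The ERK phosphatase gene Dusp4 rose by 1.62 ± 0.11 and the immediate early gene Egr1 by 1.51 ± 0.10, while Fosl1, an AP-1 subunit, fell (-0.80 ± 0.19). In tumor sgTgfbr2 7 of 15 rose and 1 fell (median 0.49 against -0.023 over all genes, 29.8% higher and 30.5% lower), with Phlda1 at 2.63 ± 0.14, Egr1 at 2.13 ± 0.14 and Dusp5 at -1.04 ± 0.18. With PB 5 of 16 rose and 9 fell (median -0.45 against -0.012 over all genes, 36.5% higher and 36.8% lower). The ERK phosphatase gene Dusp6 averaged 112 CPM with PB against 596 with vehicle (-2.27 ± 0.03), and Egr1 251 against 1133 (-2.03 ± 0.02), while Spry1 (0.90 ± 0.08) and Etv5 (0.64 ± 0.04) rose.

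Of the genes of ligand shedding 2 of 8 tested rose and 1 fell in premalignant sgTgfbr2, 5 and 4 of 9 in tumor sgTgfbr2, and 4 and 1 of 7 with PB. The premalignant count is near the 22.7% of all genes called higher there, and no result about the list. Rhbdf2, a partner of the sheddase Adam17, rose in premalignant sgTgfbr2 (0.38 ± 0.09) and with PB (0.79 ± 0.04), where its relative Rhbdf1 rose too (0.56 ± 0.03) and Frmd8 fell (-0.38 ± 0.06). Adam15 fell in premalignant sgTgfbr2 (-0.62 ± 0.09) and in tumor sgTgfbr2 (-1.06 ± 0.14), where Adam10 (1.1 ± 0.13) and Adam12 (2.03 ± 0.32) rose and Adam17 fell (-0.85 ± 0.14). Of the 16 genes of receptor turnover and inhibition 5 rose and 0 fell, 8 rose and 4 fell, and 10 rose and 4 fell in the 3 comparisons in this order. They included Ptprj, a receptor phosphatase gene, at 1.05 ± 0.19 in premalignant sgTgfbr2 and -0.41 ± 0.05 with PB, and Lrig2 at 0.75 ± 0.13 and 0.90 ± 0.05. In tumor sgTgfbr2 the ubiquitin ligase gene Cblc (2.14 ± 0.15) and Spint1 (1.18 ± 0.14) rose, and Tob1 (-1.44 ± 0.15) and Lrig3 (-1.01 ± 0.17) fell. With PB Rin1 rose (0.96 ± 0.03) and Rnf41 fell (-0.42 ± 0.07). Of the 22 adaptors and first signalling steps 8 rose and 5 fell, 12 rose and 6 fell, and 11 rose and 6 fell. Over all genes 22.7% were higher and 23.5% lower, 29.8% and 30.5%, and 36.5% and 36.8% in the same order, and the premalignant falls were near that share. The kinase gene Braf rose in all 3 (0.88 ± 0.13 in premalignant sgTgfbr2, 1.09 ± 0.16 in tumor sgTgfbr2 and 0.61 ± 0.04 with PB). The adaptor gene Grb7, an Erbb2 partner, fell with PB (-0.79 ± 0.04), as did Pik3r1 (-0.53 ± 0.07).

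**Figure D4:**
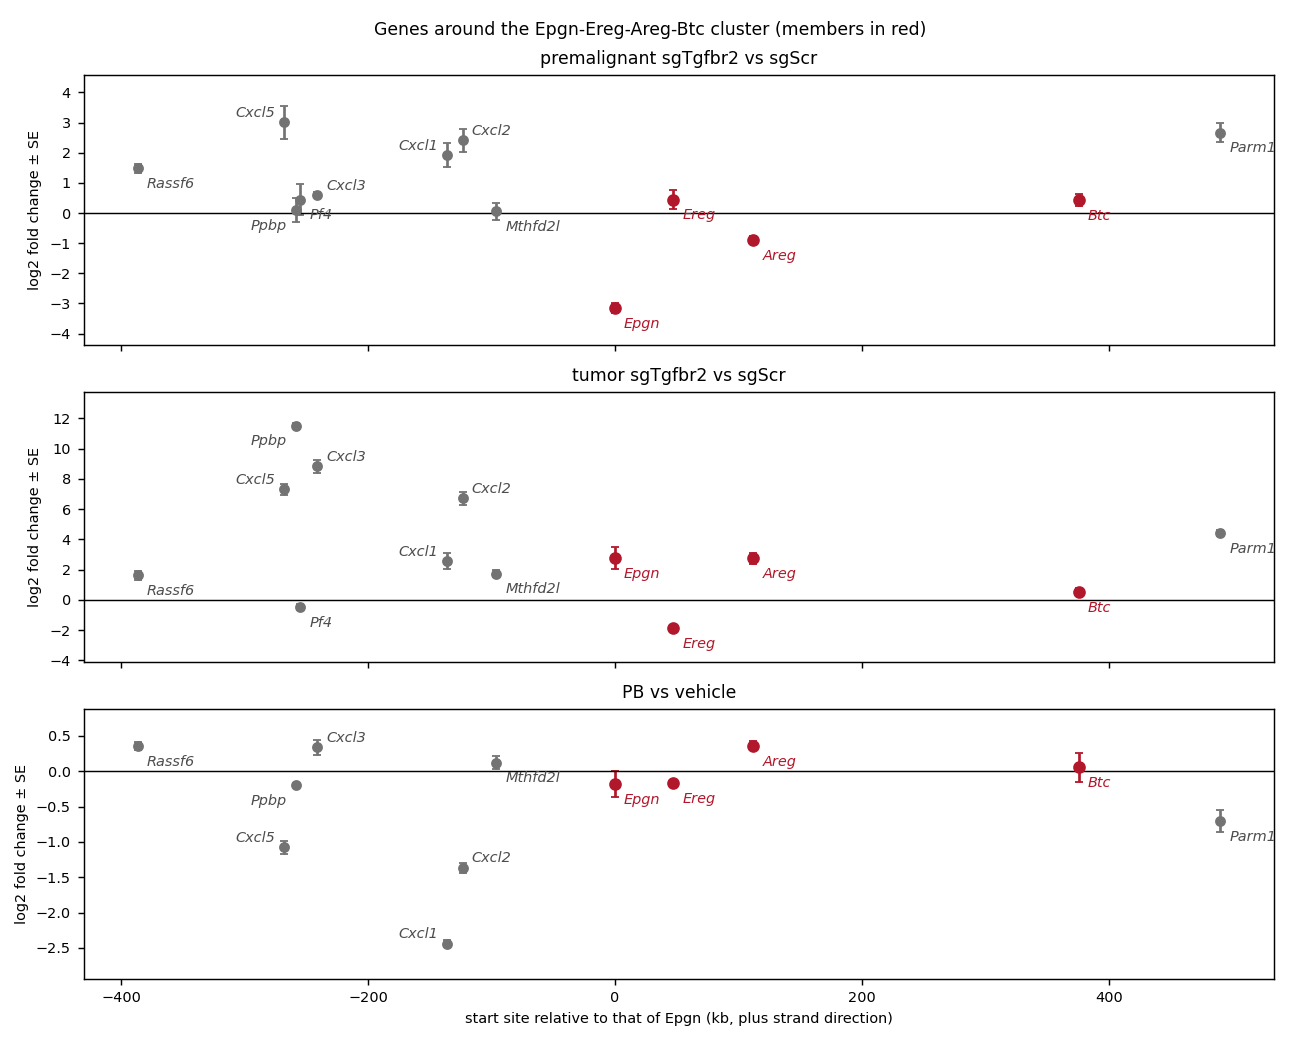
Log2 fold change with standard error by edgeR (y axis, on a scale of its own per panel) against the distance of each tested gene's start site from that of Epgn in kb (x axis), for premalignant sgTgfbr2 over sgScr, tumor sgTgfbr2 over sgScr, and PB over vehicle. Members are in red, and Epgn and Areg lie below their neighbours in the premalignant panel, at -3.16 and -0.89.

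The genes around the ligands of chromosome 5 differed in direction from one another in the tumor table and with PB. In premalignant sgTgfbr2 over sgScr those called were all higher. Within 500 kb, a neighbourhood chosen after values were seen, the premalignant comparison held higher levels of Rassf6 (1.48 ± 0.15) upstream of Epgn. Higher there too were the chemokine genes Cxcl5 (3.0 ± 0.56), Cxcl2 (2.40 ± 0.40), Cxcl1 (1.92 ± 0.40) and Cxcl3 (0.60 ± 0.08). On the far side of Btc, Parm1 was higher too (2.67 ± 0.32). Rassf6, Cxcl5, Cxcl2, Cxcl1 and Parm1 were each called lower in line 2 than in line 1, from -0.43 (Rassf6) to -2.03 (Cxcl5). Another chemokine gene, Ppbp, was higher in line 2 (1.48 ± 0.16). The gene next to Epgn, Mthfd2l, did not pass in premalignant sgTgfbr2 over sgScr (0.06 ± 0.28, adjusted p = 0.877). Between the lines it was called lower in line 2 (-1.03 ± 0.16, adjusted p = 0.000437). In the tumor table, whose groups differed in tissue markers, Ppbp (11.5 ± 0.19), Cxcl3 (8.82 ± 0.42), Cxcl5 (7.30 ± 0.34) and Mthfd2l (1.73 ± 0.23) were among those higher. Pf4 was the only gene around the ligands called lower there (-0.47 ± 0.18). With PB Cxcl1 (-2.44 ± 0.05), Cxcl2 (-1.37 ± 0.07), Cxcl5 (-1.08 ± 0.09) and Ppbp (-0.20 ± 0.03) were lower, while Cxcl3 (0.34 ± 0.11) and Areg were higher. The chemokines are a multigene family, so their separate counts are uncertain. The exons of Ereg, Tgfa and Erbb2 overlap those of Gm19610, Gm43917 and Mien1 on the other strand, and whether counting used strand is not given, so reads of these pairs cannot be told apart.

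Among the 13 premalignant, PB and vehicle libraries, log2(CPM + 1) was centred within each table. Btc averaged under 5 CPM there and was left out. Correlations between the other members ran from -0.90 (Epgn and Egfr) to 0.95 (Hbegf and Erbb2). Egfr and Erbb3 had 0.92, and Areg and Epgn 0.88. Over the 10122 genes compared, those with the highest correlation were Rqcd1 (0.987) and Anxa2 (0.986) for Epgn, Ssrp1 (0.962) and Pdcd6 (0.956) for Areg, Urah (0.972) and Thap6 (0.964) for Ereg, Dag1 (0.989) and Mab21l3 (0.988) for Hbegf, and Plekha2 and Pcgf3 (both 0.986) for Tgfa. For the receptors they were Fem1b and Tfcp2l1 (both 0.997) for Egfr, Pdp1 (0.988) and Junb (0.987) for Erbb2, and Ptprs (0.993) and Ptk7 (0.992) for Erbb3. For Errfi1 they were Cyp2s1 and Wdr19 (both 0.991). These libraries fall into 5 groups that share guides and treatment, so the values are a description with no test.

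In the authors' deposited table the same 10 members were called alike in the premalignant and PB comparisons. In the tumor comparison 9 were, since Btc had an adjusted p of 0.0644 in the authors' deposited table.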

How the data were processed

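The authors deposited 3 tables with whole-number counts per gene and library, the authors' normalized values, log2 fold changes and p-values, per the file headers. STAR 2.6.0a, DESeq2 1.26.0 and mm10 were used, per the submitters' processing notes. How reads were counted, with which annotation and whether by strand, is not stated in what was used here. The authors' 18 normalized columns were left aside.

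Within each table, deposited counts entered edgeR 4.0.16 (R 4.3.3). filterByExpr (minimum count 10) and TMM scaling came first. The two-sided quasi-likelihood F test followed, its p-values adjusted by Benjamini and Hochberg's method over all genes tested, at a threshold of 0.05. A standard error is the log2 fold change over the square root of F. The line contrast used a mean per line with sgScr in the fit, and the stage contrast the 12 libraries of both guide tables. The code was tested on simulated data. Library totals ran from 14993749 to 21784140, so a floor of 3 counts equals 0.138 to 0.200 CPM and covers counting error only.

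Members and gene lists were chosen with earlier results of these data known. The rule for named genes took all members, Tgfbr2, and from each list up to 2 genes a direction by smallest p among called genes averaging 5 CPM or more. Not all of them are printed. Genes most like a member were taken by Pearson correlation among genes of at least 5 CPM. Positions came from GENCODE M21 and promoters from RefSeq. Motif letters were chosen after the sequences were seen. A chi-square comparison of replicate pairs within a group or line (genes of 20 counts or more) gave 1.51 to 2.03 per degree of freedom with PB and vehicle. It gave 6.42 to 21.3 in the other groups, so none were merged. Alternatives were DESeq2 1.42.0, limma 3.58.1 (voom), library totals, upper-quartile scaling, no filter, a filter of 1 CPM, a replicate block, each replicate left out, the line settings, and the length of all annotated exons together for levels per kb.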

Additional observations from a re-analysis of the deposited data

Results flagged for a closer look

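Of the guide's effects, 8 differed between the tumor and the premalignant tables by edgeR's test of the difference itself, in which the premalignant log2 fold change is taken from the tumor one. The differences were 5.92 for Epgn, 3.62 for Areg, 1.35 for Hbegf, -2.30 for Ereg, -1.84 for Egfr, -0.88 for Tgfa, -0.74 for Erbb2 and -0.68 for Errfi1. For Epgn, Areg, Ereg, Egfr, Tgfa and Erbb2 the effect had opposite signs in the tumor and premalignant tables. The tumor value of Erbb2 did not pass and turned to 0.13 with library totals, and the premalignant values of Ereg and Tgfa did not pass, that of Ereg turning to -0.28 with line 2 alone. Line 2 differed from line 1 of premalignant sgTgfbr2, by the same kind of test, in Ereg (-1.20), Tgfa (-0.39) and Egfr (0.63). Dixon's test for a library apart from its group was run on the 4 pooled premalignant sgTgfbr2 libraries alone and picked none. These are 2 libraries of each line, and where the lines stand apart the test can hardly pick a library. The other groups, of 2 or 3 libraries, were not tested, among them tumor sgTgfbr2 with Erbb3 at 42.7 and 83 CPM.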

How the results depend on the processing

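PB calls of the 10 members held under all alternatives. Btc, never called there, turned to -0.083 with library totals, -0.032 with upper-quartile scaling and -0.098 without vehicle replicate 3 (highest with a replicate left out, 0.23). In the premalignant comparison 8 members were higher with a mean per line and with line 1 alone, against 5. The former leaves the difference between the lines out of its spread. Over all genes 3919 and 3322 were higher in these settings, against 2979. Ereg turned to -0.28 with line 2 alone. All premalignant genes higher numbered 1954 to 3018 with a replicate left out (1977 and 1954 without sgScr replicates 1 and 2). In the tumor comparison 3 members were higher with the replicate block, against 5, and 3 to 5 with a replicate left out. Over all genes 3739 were higher with that block, against 4492. Erbb2 turned to 0.13 in the tumor comparison with library totals. For line 2 against line 1 the replicate block gave 3 members higher (against 1, with Erbb3 and Errfi1 added), called Hbegf lower, and gave 2665 genes higher and 2700 lower. With a replicate left out 1 to 2 members were higher and 1 to 2 lower, and 691 to 2519 genes were higher and 757 to 2528 lower (691 to 1004 and 757 to 1003 without any 1 of the 4 line libraries). Epgn turned to -0.12 without line 2 replicate 2 (highest 0.37), and Erbb2 to 0.0043 without line 1 replicate 1 (lowest -0.17). In the stage contrast Btc turned to -0.050 without tumor sgTgfbr2 replicate 2 (highest 0.25). The cause of these changes was not tested. Deviations of same-numbered libraries correlated at -0.0095 to 0.0061 under PB, -0.10 to 0.14 in the premalignant and -0.087 to -0.017 in the tumor table. Of 6 premalignant pairs 1 was above 0.1. In a group of 2 libraries the deviations mirror each other, so whether replicate numbers pair samples is not settled. Depth limits Epgn most, at 1, 9 and 11 counts in tumor sgScr.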
